A study of Mus musculus with 51 samples.

Results

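The genes described here are those through which the damage-activated transcription factor p53 is linked to apoptosis, together with the survival members of the Bcl2 family that oppose it. 10 genes were named: Aen, Bax, Bbc3, Pmaip1, Fas, Tnfrsf10b, Perp, Bcl2, Bcl2l1 and Mcl1. All probe sets that the array annotation gives to one of these symbols alone were taken, which gave 17 probe sets of 9 genes out of 22626 probe sets and 11807 genes on the array. Bax was matched to no probe set by name and was not analysed here. The genes were named for their known roles, with earlier results of these data known.

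Mammary glands (MGs) came from virgin female BALB/c mice, a strain sensitive to radiation-induced mammary cancer, and from C57BL/6 mice, a resistant strain. The mice were 8 weeks old when a regimen of 4 weekly whole-body X-ray exposures began. The exposures were sham irradiations, a low dose (LD) of 7.5 cGy each or a high dose (HD) of 1.8 Gy each, and the glands were taken 4 hr or 1 month after the last one. BALB/c mice gave 4 HD, 4 LD and 3 sham arrays at 4 hr, and 4 HD, 2 LD and 3 sham arrays at 1 month. C57BL/6 mice gave 4 HD, 4 LD and 3 sham arrays at 4 hr, and 4 arrays of each treatment at 1 month. The fourth mammary glands were used after the inguinal lymph node had been cut out, with 1 array per mouse. Nucleated blood cells of 4 BALB/c and 4 C57BL/6 unirradiated females, 9 weeks old, were drawn from the heart and cleared of globin RNA. No transgene or targeted allele is named for either strain.

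The values are log2 intensities of Affymetrix HT_MG-430A probe sets, so a difference of 1 is a change by a factor of 2. The probe sets of a gene are called the brightest, the second, the third and the fourth by their mean over the MG arrays. In the MG, 7 of 9 luminal epithelial, 6 of 8 myoepithelial, 5 of 5 adipocyte and 7 of 7 endothelial markers lay above the array median, against 0 of 7 B cell and 0 of 6 T cell markers. In blood, 6 of 7 B cell, 5 of 6 T cell and 6 of 7 neutrophil markers lay above it, and 1 of 9 luminal markers. 7 arrays were taken to hold transcripts of another tissue, among them BALB/c HD 4 hr replicate 1 and BALB/c sham 4 hr replicate 1, whose skeletal muscle markers averaged 7.13 and 2.77 above the median MG array, and C57BL/6 blood replicate 4, whose liver markers averaged 9.46 above the median blood array. The MG arrays of each strain lay on a separate plate, which makes strain and plate impossible to tell apart, and the plate columns followed the treatments. In whole tissue, fewer cells of a type and less RNA per cell cannot be told apart.

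DNA double-strand breaks stabilise p53, which binds paired copies of a short half-site near its target genes and raises their transcription. One arm of this programme halts the cell cycle and limits p53 itself, and another primes apoptosis through nucleases, BH3-only proteins that unleash the mitochondrial pore formers, and death receptors at the cell surface. Bcl2, Bcl2l1 and Mcl1 code for the proteins that hold the pore formers in check, and in the mammary gland this balance is known for its part in the loss of epithelium after lactation and in the response to radiation.

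The promoter windows of the gene with the highest fold after HD and of the death receptor that was called with it are shown, since both genes moved together at 4 hr in BALB/c. They are RefSeq windows of GRCm38.p6 that run from 250 bases before to 50 after an annotated start site, Aen at chr7:78895677-78895976 on the plus strand and Fas at chr19:34290409-34290708 on the plus strand. Capitals mark the match to the p53 half-site consensus, searched on both strands.
Aen: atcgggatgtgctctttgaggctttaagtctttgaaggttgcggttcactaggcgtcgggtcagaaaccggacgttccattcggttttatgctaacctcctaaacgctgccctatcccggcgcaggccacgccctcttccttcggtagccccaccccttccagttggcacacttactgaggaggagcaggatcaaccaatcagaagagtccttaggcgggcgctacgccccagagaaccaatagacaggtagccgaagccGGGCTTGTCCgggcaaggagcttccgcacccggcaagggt
Fas: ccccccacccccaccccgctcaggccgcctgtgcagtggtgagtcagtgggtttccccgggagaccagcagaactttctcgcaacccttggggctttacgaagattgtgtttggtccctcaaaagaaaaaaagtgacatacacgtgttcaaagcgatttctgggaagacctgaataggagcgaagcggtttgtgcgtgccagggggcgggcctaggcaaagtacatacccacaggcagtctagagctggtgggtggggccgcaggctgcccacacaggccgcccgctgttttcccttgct
The half-site in the Aen window begins at position 11, counted with the start site as 1, and the Fas window holds no match. Among 32851 such windows of 27025 genes, 8.36% held at least 1 match. For the 10 genes named, windows of 7 were taken here, and none of Perp, Pmaip1 or Tnfrsf10b. Of these 12 windows 3 held a match, both overlapping windows of Aen and 1 of Bax. These counts cover the windows taken only and were not tested against the share among all windows. A match is a description of the letters only.

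HD exposure was followed at 4 hr by higher transcript levels of Aen in both strains and of Fas and Bcl2l1 in BALB/c. In BALB/c, 3 of 9 genes were called against sham at an adjusted p under 0.05 (limma), all of them higher, where 6.87% of all genes were called and 3.25% were called higher. In C57BL/6, 1 of 9 genes was called, and it was higher, where 0.966% of all genes were called and 0.466% higher. The arrays of 4 of 9 genes in each strain did not overlap with sham at some probe set, beside 22.8% of all genes in BALB/c and 16% in C57BL/6. With the plate column as a covariate, which followed the treatments, 1 gene was called in BALB/c and 2 were in C57BL/6. The median log2 fold change of the 9 genes, each at its brightest probe set, was 0.33 in BALB/c and 0.29 in C57BL/6, where all genes had a median of -0.00 and -0.01.

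Aen codes for apoptosis-enhancing nuclease, an exonuclease whose gene is a direct p53 target. At its brightest probe set the 4 BALB/c HD arrays of 4 hr measured 8.74, 8.80, 8.79 and 8.83, against 7.23, 7.03 and 7.25 in the sham arrays. The 4 C57BL/6 HD arrays measured 8.72, 8.48, 8.58 and 8.56, against 6.82, 6.74 and 6.67 in sham. Every HD array of 4 hr lay more than 1 log2 unit above every sham array of its strain. Aen rose by 1.62 on the log2 scale in BALB/c, 3.08-fold (standard error 0.16, adjusted p = 1.53e-05, limma), and by 1.84 in C57BL/6, 3.59-fold (standard error 0.19, adjusted p = 1.54e-05). LD arrays of 4 hr measured 7.04, 7.13, 7.02 and 6.82 in BALB/c, within or under the sham range, and 7.04, 6.33, 6.37 and 6.53 in C57BL/6, on both sides of it.

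The second Aen probe set gave the same separation. It measured 7.52, 6.93, 7.14 and 7.56 in BALB/c HD glands, against 5.44, 5.31 and 5.62 in sham glands, and 7.30, 7.34, 7.17 and 7.01 in C57BL/6 HD glands, against 5.74, 5.86 and 5.38 in sham glands. The differences were 1.83 in BALB/c (3.55-fold, standard error 0.17, adjusted p = 6.17e-06) and 1.54 in C57BL/6 (2.91-fold, standard error 0.15, adjusted p = 7.6e-06). The third probe set of the gene lay at 4.34 on average over the MG arrays, far under the array medians of 6.16 to 6.36. It differed by 0.06 in BALB/c (95% interval -0.18 to 0.30) and by 0.27 in C57BL/6, where the arrays did not overlap but the adjusted p was 0.176. These 3 probe sets share the same arrays and the same gene and are not independent.

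**Figure D1:**
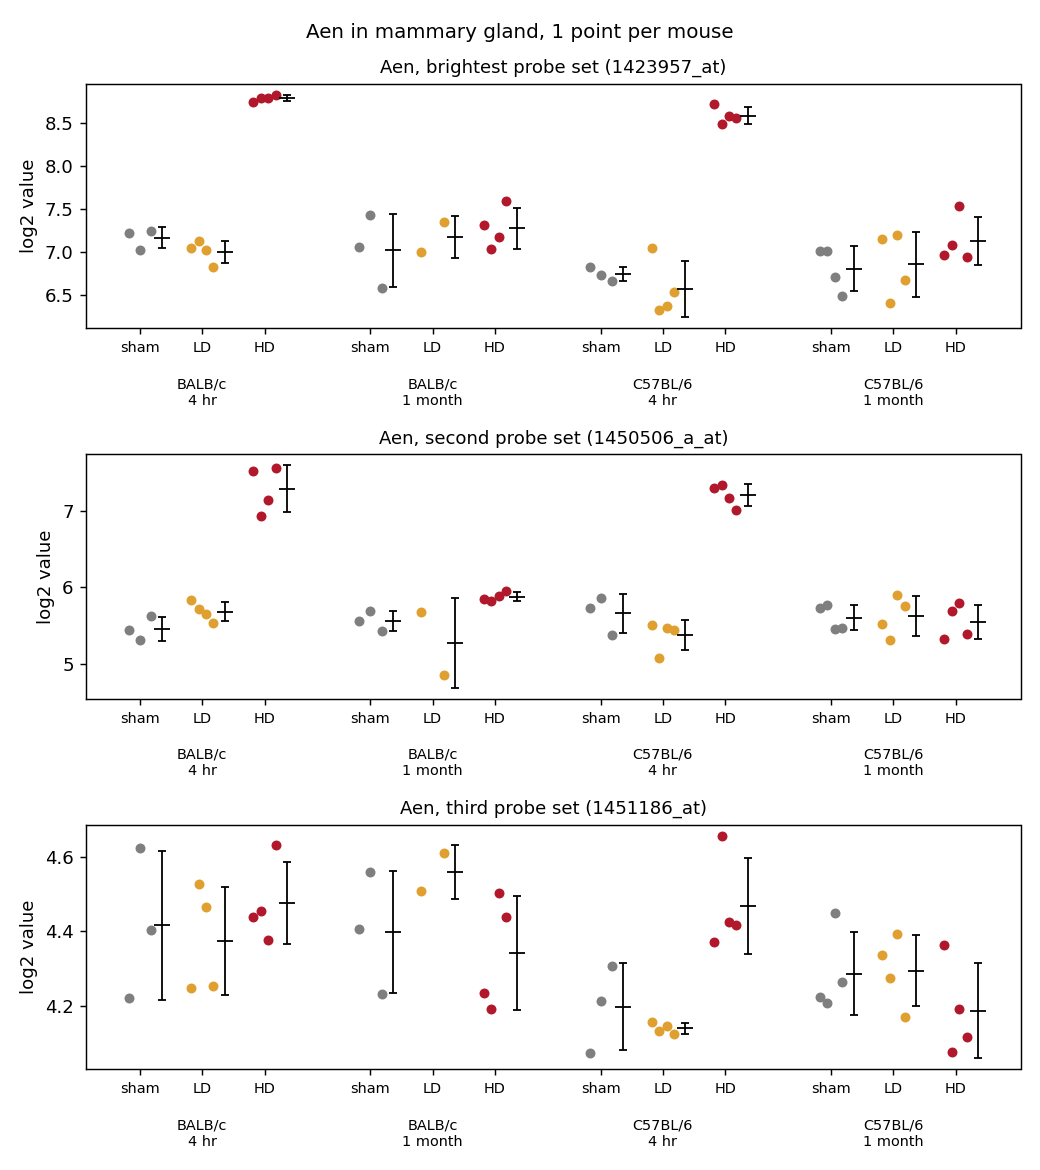
Log2 value of the 3 Aen probe sets in every mammary array, 1 point per mouse, by dose, time and strain, with the mean and SD beside each group. At the brightest probe set the HD arrays of 4 hr lay between 8.48 and 8.83, above all other MG arrays, whose highest value was 7.59 in BALB/c HD 1 month.

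The BH3-only genes stayed closer to sham. Bbc3, which codes for PUMA, measured 6.13, 6.34, 6.42 and 6.09 in BALB/c HD glands at 4 hr, against 5.80, 5.62 and 5.97 in sham glands. These groups did not overlap, yet the difference of 0.45 (standard error 0.16, 95% interval 0.12 to 0.78) did not pass the threshold, with an adjusted p of 0.0984. In C57BL/6 the HD arrays measured 5.99, 5.78, 6.09 and 6.17 and the sham arrays 5.95, 6.20 and 5.97, a difference of -0.03 (95% interval -0.38 to 0.32). Pmaip1, which codes for Noxa, was dim, with a mean of 4.97 over the MG arrays. Its differences after HD at 4 hr were 0.13 in BALB/c (95% interval -0.35 to 0.60) and 0.29 in C57BL/6 (95% interval -0.19 to 0.77).

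Of the death receptors, Fas binds Fas ligand and starts the caspase cascade from the cell surface. Fas measured 8.43, 8.27, 8.32 and 8.65 in BALB/c HD glands at 4 hr, against 7.10, 7.58 and 7.61 in sham glands, and the groups did not overlap. It rose by 0.99 in BALB/c, 1.98-fold (standard error 0.17, adjusted p = 0.00402). Without the arrays with other-tissue transcripts the difference was 0.82 and no longer called (adjusted p = 0.0578). In C57BL/6 the HD arrays measured 8.55, 8.71, 8.85 and 8.79, against 8.26, 8.05 and 8.14 in sham, again without overlap. This difference of 0.58, 1.49-fold (standard error 0.14, 95% interval 0.29 to 0.86), lay at the edge of the threshold, with an adjusted p of 0.0516.

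Tnfrsf10b is the mouse receptor of the death ligand TRAIL. Its brighter probe set lay under the array medians, and the suffix of its name marks probes that can match several transcripts. It measured 5.06, 4.68, 5.25 and 5.10 in BALB/c HD glands at 4 hr, against 4.37, 4.63 and 5.08 in sham glands, which overlapped, and the difference was 0.33 (95% interval -0.01 to 0.67, adjusted p = 0.259). In C57BL/6 it measured 4.76, 5.03, 5.04 and 4.78 in HD glands, against 4.24, 4.68 and 4.21 in sham glands, without overlap, and the difference of 0.53 had a 95% interval of 0.16 to 0.89 and an adjusted p of 0.19. The other Tnfrsf10b probe set, still dimmer, averaged 4.43 in BALB/c HD glands and 4.46 in sham glands. In C57BL/6 it averaged 4.42 and 4.21, and its HD and sham arrays overlapped in both strains.

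Perp, a tetraspan membrane protein of epithelial cell junctions and a p53 target, lay lower after HD at both times in both strains without passing the threshold. At 4 hr the BALB/c HD arrays measured 8.04, 7.01, 7.51 and 6.44, against 8.43, 7.90 and 7.63 in sham, with overlap and a difference of -0.74 (95% interval -1.49 to 0.02, adjusted p = 0.253). The C57BL/6 HD arrays measured 7.67, 7.86, 7.31 and 8.20, against 8.47, 8.12 and 8.44 in sham, with a difference of -0.58 (95% interval -1.29 to 0.12). At 1 month the differences were -0.67 in BALB/c (adjusted p = 0.532) and -0.73 in C57BL/6 (adjusted p = 0.23). The luminal epithelial markers, read as their mean over 9 genes against the median MG array, were also lower after HD at 4 hr. In the same 4 BALB/c HD arrays of 4 hr this mean was -0.89, -1.65, -1.24 and -2.10, and it was between -0.45 and -0.07 in the sham arrays. The marker mean ran from -0.81 to -0.15 in C57BL/6 HD glands at 4 hr, against 0.01 to 0.14 in sham glands. At 1 month after HD it ran from -1.10 to -0.24 in BALB/c, against 0.03 to 0.24 in sham glands. In C57BL/6 it then ran from -0.13 to 0.21, against 0.02 to 0.82, with overlap. The 8 myoepithelial markers had median differences of -0.51 in BALB/c and -0.31 in C57BL/6 after HD at 4 hr. In C57BL/6 LD glands of 1 month Perp averaged 8.40, against 8.80 in sham glands. There the luminal markers had a median difference of 0.30 and the myoepithelial markers of -0.65. The array with the lowest Perp value among the BALB/c HD arrays of 4 hr was also the one with the lowest luminal marker mean. The part of the epithelial markers in the Perp differences was not tested. For Aen, Fas and Bcl2l1, which were higher in the same HD glands, the part of these markers was not tested either.

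**Figure D2:**
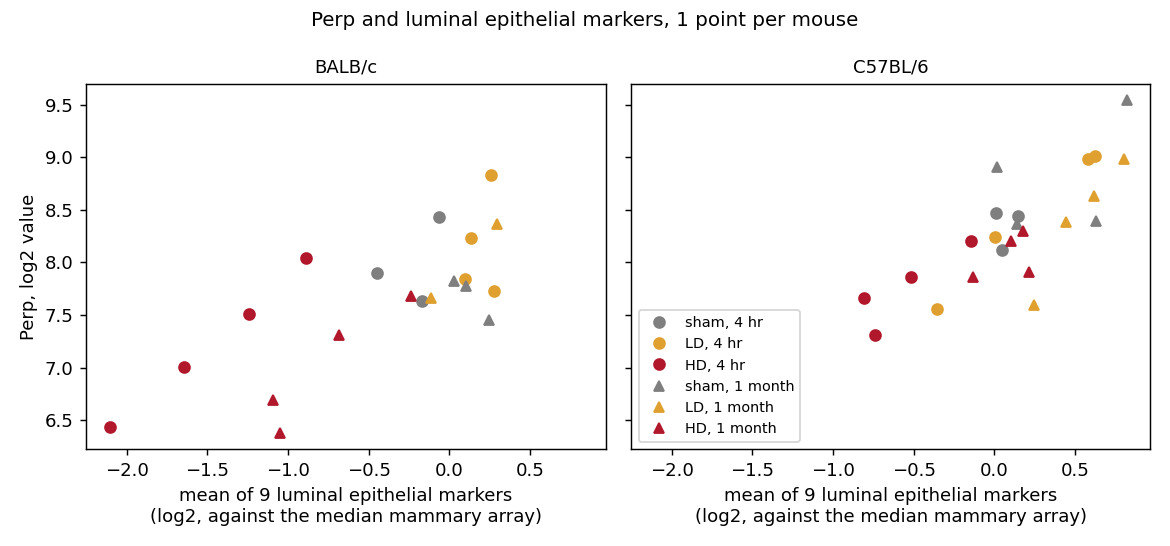
Perp log2 value (vertical axis) against the mean of 9 luminal epithelial markers relative to the median mammary array (horizontal axis, log2), 1 point per mouse, with colour for dose and shape for time. The 4 BALB/c HD arrays of 4 hr lay between -2.10 and -0.89 on the marker axis, left of every BALB/c LD and sham array.

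Among the survival genes, Bcl2l1, which codes for Bcl-xL, was called after HD at 4 hr in BALB/c. Its brightest probe set measured 8.30, 8.61, 8.40 and 8.31 in BALB/c HD glands, against 7.92, 7.84 and 8.12 in sham glands, and the groups did not overlap. The difference was 0.44, 1.36-fold (standard error 0.11, adjusted p = 0.0303), and it stayed called in only 7 of 16 alternative settings. In C57BL/6 the HD arrays measured 8.58, 8.32, 8.15 and 8.38, against 8.13, 8.03 and 8.01 in sham, also apart, with a difference of 0.30 and an adjusted p of 0.198. A further pair of Bcl2l1 probe sets lay higher in every C57BL/6 HD array than in every sham array, the third by 0.60 (adjusted p = 0.16) and the second by 0.35 (adjusted p = 0.304). In BALB/c both overlapped with sham, the second at 6.09 to 6.57 in HD glands and 5.89 to 6.34 in sham glands. The third measured 5.53 to 6.36 against 5.62 to 5.81. The fourth, dim one averaged 4.13 in BALB/c HD glands and 4.13 in sham glands. In BALB/c the brightest averaged 8.41 in HD and 8.12 in LD glands of 4 hr, and that difference was not called.

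Bcl2 and Mcl1 were not called in any comparison. After HD at 4 hr, Bcl2 differed by 0.26 in BALB/c (95% interval -0.15 to 0.67) and by -0.23 in C57BL/6 (95% interval -0.55 to 0.08). The 3 probe sets of Mcl1, a survival protein with a short half-life, taken from the brightest to the third, differed by -0.10, -0.28 and 0.01 in BALB/c and by -0.10, -0.12 and -0.18 in C57BL/6.

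**Figure D3:**
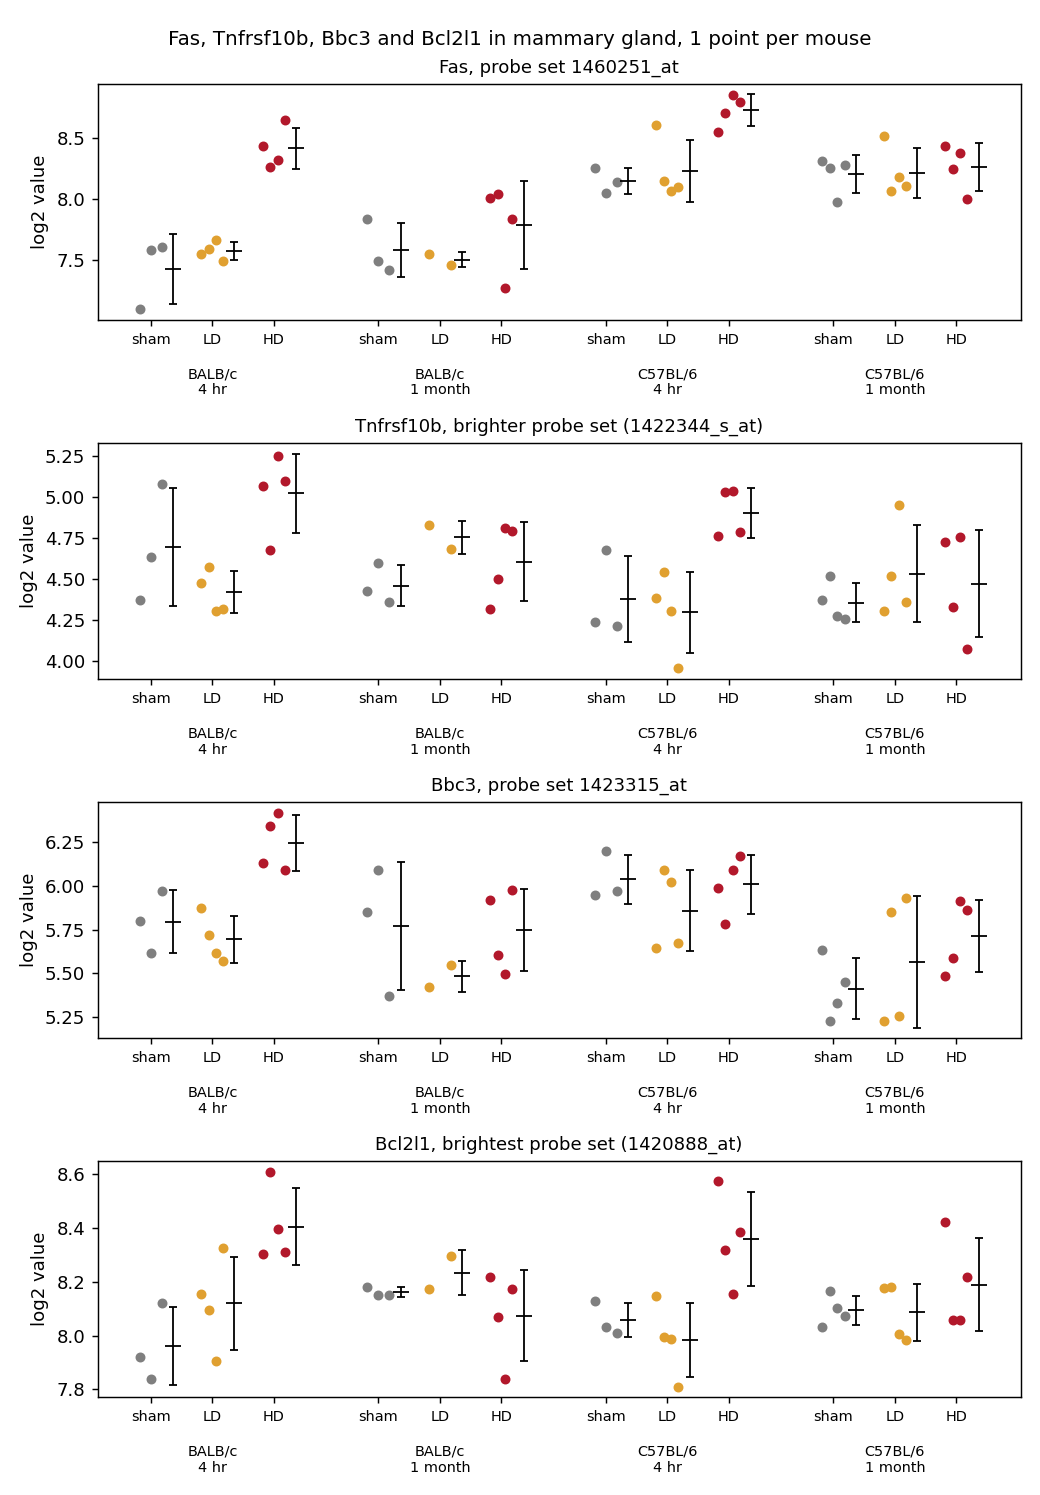
Log2 value of Fas, Tnfrsf10b, Bbc3 and Bcl2l1 in every mammary array, 1 point per mouse, with the mean and SD beside each group. Fas in BALB/c lay between 8.27 and 8.65 in HD glands at 4 hr and between 7.10 and 7.61 in sham glands. Over all MG arrays Fas ran from 7.10 to 8.85, Tnfrsf10b from 3.95 to 5.25 and Bbc3 from 5.23 to 6.42.

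LD exposure left these genes near sham at 4 hr. In each strain 0 of 9 genes were called by limma, where 0% of all genes were called, and 0 of 9 had an unadjusted p under 0.05, beside 13.1% of all genes in BALB/c and 6.7% in C57BL/6. Aen at its brightest probe set differed by -0.16 in BALB/c (95% interval -0.50 to 0.17) and by -0.17 in C57BL/6 (95% interval -0.57 to 0.23), and the intervals did not reach the size of its HD response. Fas differed by 0.15 in BALB/c (95% interval -0.21 to 0.50) and by 0.08 in C57BL/6 (95% interval -0.20 to 0.37). Over the 17 probe sets the differences ran from -0.28 to 0.28 in BALB/c and from -0.28 to 0.10 in C57BL/6.

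HD and LD glands of 4 hr were also set against each other directly. This contrast uses the same HD arrays as the one against sham and is not a further sample of the HD response. In BALB/c, 4 of 9 genes were called, all higher in HD glands, where 9.32% of all genes were called and 3.34% higher. Besides Aen (1.78 at the brightest probe set, adjusted p = 2.1e-06) and Fas (0.84, adjusted p = 0.00353), these were Tnfrsf10b (0.60, standard error 0.15, adjusted p = 0.0221) and Bbc3 (0.55, standard error 0.14, adjusted p = 0.0275). Tnfrsf10b at its brighter probe set measured 4.48, 4.57, 4.30 and 4.32 in the BALB/c LD glands and Bbc3 5.87, 5.72, 5.61 and 5.57, so that every HD array given above lay over every LD array. In BALB/c at 4 hr this Tnfrsf10b probe set averaged 4.42 in LD and 4.69 in sham glands, and Bbc3 5.69 and 5.80. The other Tnfrsf10b probe set averaged 4.43 in BALB/c HD glands and 4.32 in LD glands, with overlap. The Tnfrsf10b call held in 9 of 15 alternative settings and the Bbc3 call in 8 of 15. Leaving out the arrays with other-tissue transcripts lowered the count of called genes to 1. Perp differed by -0.91 between HD and LD glands and was not called (adjusted p = 0.102). Without HD replicate 1, the array with muscle transcripts, it was called lower (-1.17, adjusted p = 0.0373). The BALB/c LD arrays measured 8.83, 7.84, 7.73 and 8.23 for Perp, and their luminal marker mean lay between 0.10 and 0.28. The part of the epithelial markers in this difference was not tested.

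In C57BL/6, 1 of 9 genes was called, higher in HD than in LD glands, where 2.04% of all genes were called and 0.686% higher. Aen differed by 2.02, 4.05-fold, at the brightest probe set (adjusted p = 1.92e-06). It differed by 1.82 at the second (adjusted p = 2.77e-07). The third, dim one differed by 0.33 (adjusted p = 0.0474), a call that held in 5 of 14 alternative settings. Fas (0.50, adjusted p = 0.0531), Tnfrsf10b (0.61, adjusted p = 0.0625) and Bcl2l1 at its brightest probe set (0.37, adjusted p = 0.0519) stayed just above the threshold. Perp differed by -0.69 (adjusted p = 0.249).

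At 1 month after HD no member passed the threshold. Limma called 0 of 9 genes in BALB/c, where 0.0339% of all genes were called, and 0 of 9 in C57BL/6, where 1.28% were called. At an unadjusted p under 0.05 there were 0 of 9 in BALB/c, beside 14.3% of all genes, and 1 of 9 in C57BL/6, Perp, beside 21.8%. Aen at its brightest probe set measured 7.31, 7.03, 7.18 and 7.59 in BALB/c HD glands, against 7.06, 7.43 and 6.58 in sham glands, and 6.96, 7.08, 7.54 and 6.94 in C57BL/6 HD glands, against 7.02, 7.01, 6.71 and 6.48 in sham glands. The groups overlapped in both strains, with differences of 0.26 in BALB/c (95% interval -0.08 to 0.59) and 0.32 in C57BL/6 (95% interval -0.05 to 0.69). Fas measured 8.01, 8.04, 7.27 and 7.84 in BALB/c HD glands, against 7.84, 7.50 and 7.42 in sham glands, which overlapped.

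Pmaip1 was high in single HD arrays of 1 month. BALB/c HD replicate 1 measured 6.11 where the other 3 arrays measured 4.77 to 5.03, and C57BL/6 HD replicate 3 measured 6.30 where the others measured 4.71 to 5.12. In the same arrays the mean of the 7 B cell markers, read against the median MG array, was 3.01 in BALB/c HD replicate 1 and 1.44 in C57BL/6 HD replicate 3, and the mean of 6 T cell markers was 3.14 and 2.00, the highest of each group. Bcl2 was also highest, at 6.48, in that BALB/c array. The part of lymphocyte transcripts in these values was not tested.

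The change of the HD response between the times was tested itself. In BALB/c the Aen response at 1 month was smaller than at 4 hr at its brightest probe set (difference -1.37, standard error 0.23, adjusted p = 0.0225), and the difference was -1.52 at the second (standard error 0.24, adjusted p = 0.0138). In C57BL/6 the differences at these probe sets were -1.52 (standard error 0.26, adjusted p = 0.0278) and -1.60 (standard error 0.21, adjusted p = 0.00203). Aen was the 1 gene of 9 called in each strain, where 0.119% of all genes were called in BALB/c and 0.0593% in C57BL/6. The BALB/c count fell to 0 with the plate column as a covariate, without the arrays with other-tissue transcripts, or without any one of 4 sham arrays (4 hr replicates 1 and 2, 1 month replicates 1 and 2). The call of the brightest probe set held in 10 of 22 alternative settings in BALB/c and in 9 of 23 in C57BL/6, where it was lost with the plate column (adjusted p = 0.301) and without the arrays with other-tissue transcripts (adjusted p = 0.0731). The call of the second held in 15 of 21 in BALB/c and in 22 of 22 in C57BL/6. Fas differed by -0.78 in BALB/c (adjusted p = 0.392) and by -0.52 in C57BL/6 (adjusted p = 0.774), so a change of its response with time was not shown.

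At 1 month after LD, limma called 0 of 9 genes in each strain, where 0% of all genes were called. 1 gene in each strain had an unadjusted p under 0.05, beside 9.71% of all genes in BALB/c and 16.9% in C57BL/6. Both were Bcl2l1, with the second probe set at 5.52 and 5.98 in the 2 BALB/c LD arrays and at 6.34, 6.15 and 6.04 in sham (-0.43, adjusted p = 0.715), and the third probe set in C57BL/6 (0.40, adjusted p = 0.357). The direction differed between these probe sets and strains.

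**Figure D4:**
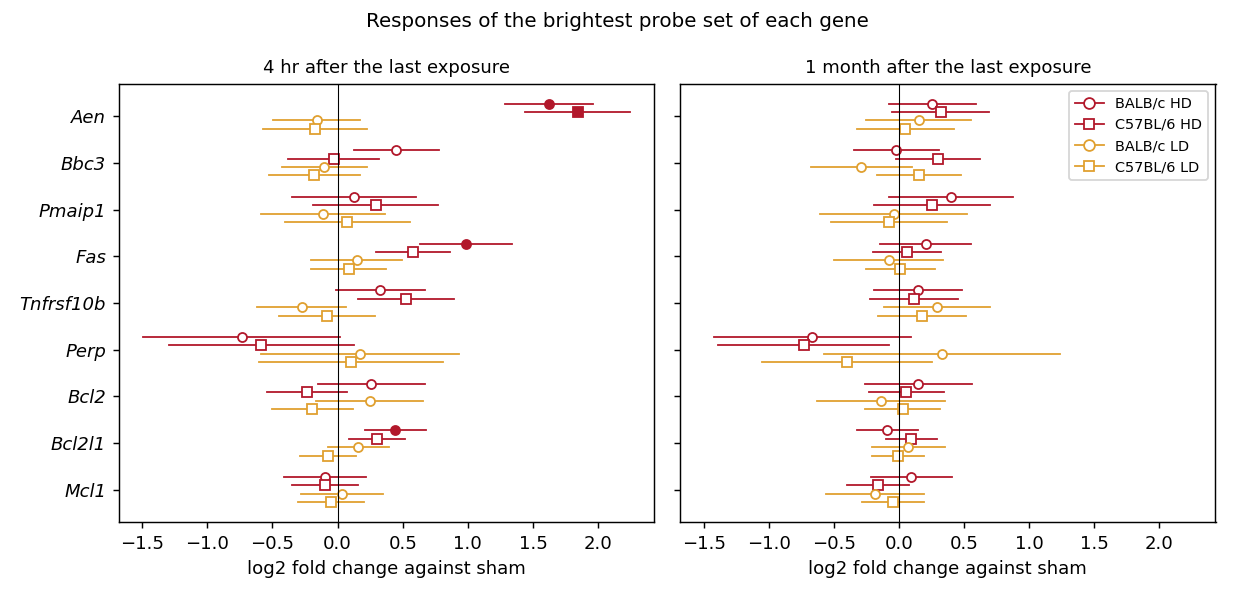
Log2 fold change of HD and LD glands against sham glands (horizontal axis) for the brightest probe set of each gene, 4 hr and 1 month after the last exposure. Bars are 95% intervals and filled symbols mark an adjusted p under 0.05, which at 4 hr are Aen in both strains and Fas and Bcl2l1 in BALB/c, and at 1 month none.

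Other genes of the pathway were read from a pair of lists, each gene at its brightest probe set. The p53 arrest and feedback list holds p53 targets, among them genes that stop the cell cycle, repair DNA or limit p53. After HD at 4 hr, 12 of its 24 measured genes were called higher and 0 lower in BALB/c, with a median of 0.48, and 9 of 24 higher and 0 lower in C57BL/6, with a median of 0.40. Over all 11807 genes, 330 were called higher and 367 lower in BALB/c and 51 higher and 52 lower in C57BL/6. Cdkn1a, the p21 inhibitor of cyclin-dependent kinases, rose by 3.36 in BALB/c and 2.54 in C57BL/6, and Mdm2, the ubiquitin ligase that degrades p53, rose by 1.10 in BALB/c and 1.16 in C57BL/6. Further genes called higher in both strains were Ccng1, the cyclin G1 gene (1.29 in BALB/c and 0.97 in C57BL/6), Polk, a translesion DNA polymerase (1.59 and 1.10), Zmat3 (1.20 and 1.37), Trp53inp1 (1.77 and 1.61) and Ei24 (0.70 and 0.51).

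The list of other apoptosis machinery did not share this direction. In BALB/c 1 of 35 genes was called higher and 3 lower after HD at 4 hr, with a median of -0.01, and in C57BL/6 1 of 35 was higher and 0 lower, with a median of -0.02. Endog, a mitochondrial nuclease, was higher in BALB/c (0.54, adjusted p = 0.0295), while the caspases Casp2 (-0.62, adjusted p = 0.0145) and Casp6 (-0.44, adjusted p = 0.0219) and Tnfsf10, the TRAIL ligand (-0.34, adjusted p = 0.0398), were lower. Apaf1, the scaffold of the apoptosome, was the gene called in C57BL/6 (0.78, adjusted p = 0.0153). Against LD glands, HD glands of 4 hr had more Apaf1 in BALB/c (0.64, adjusted p = 0.0185) and C57BL/6 (0.65, adjusted p = 0.0252). Bik, a BH3-only gene, was lower in both (-1.10, adjusted p = 0.0104, and -1.17, adjusted p = 0.0017). In this contrast 2 of 35 genes were called higher and 4 lower in BALB/c, beside 2.71% and 5.17% of all genes. In C57BL/6 1 was higher and 1 lower, beside 0.517% and 1.06%. Of the 9 luminal markers 8 were called lower in BALB/c and 1 in C57BL/6, and their part in these differences was not tested. Neither list had a called gene after LD at either time or after HD at 1 month, where the largest difference of Cdkn1a was 1.39 in BALB/c (adjusted p = 0.0943).

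The strains were first compared in their responses, as the BALB/c response minus the C57BL/6 response. Limma called 0 of 9 genes for HD and for LD at either time, where 0% of all genes were called. At an unadjusted p under 0.05 there was 1 gene for HD at 4 hr, beside 8.49% of all genes, 0 for HD at 1 month, beside 7.42%, 1 for LD at 4 hr, beside 6.1%, and 1 for LD at 1 month, beside 11.7%. For HD at 4 hr the gene was Bbc3, with a difference of 0.48 (95% interval 0.00 to 0.96, adjusted p = 0.798). The difference for Fas was 0.41 (95% interval -0.04 to 0.85), and for Aen it was -0.22 at the brightest probe set (95% interval -0.75 to 0.31) and 0.29 at the second (95% interval -0.18 to 0.76). For Bcl2l1 at its brightest probe set it was 0.14 (95% interval -0.16 to 0.45). The calls of Fas and Bcl2l1 in BALB/c alone were therefore not shown to differ between the strains. The responses of a strain to HD and LD share their sham arrays.

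Without radiation, 2 of 9 genes differed between the strains in the 13 sham glands, where 11.9% of all genes were called. Fas measured 7.10, 7.58 and 7.61 at 4 hr and 7.84, 7.50 and 7.42 at 1 month in BALB/c, against 8.26, 8.05 and 8.14 at 4 hr and 8.31, 8.25, 7.97 and 8.28 at 1 month in C57BL/6. Every BALB/c sham array lay under every C57BL/6 sham array, and Fas was lower in BALB/c by 0.67 (difference -0.67, standard error 0.10, 95% interval -0.90 to -0.44, adjusted p = 0.00148). All 5 brown adipocyte markers were also lower in BALB/c sham glands, 2 of them called, with a median difference of -1.30. Their mean against the median MG array ran from -0.69 to 0.66 at 4 hr and from -1.27 to -1.12 at 1 month in BALB/c, and from 0.23 to 3.25 at 4 hr and from -0.75 to -0.0048 at 1 month in C57BL/6. The part of these markers in the Fas and Perp differences was not tested. The BALB/c HD level of Fas at 4 hr, 8.42 ± 0.17 (SD, n = 4), compares with 8.15 ± 0.11 in C57BL/6 sham glands (SD, n = 3), values that stand on different plates.

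Perp measured 8.43, 7.90 and 7.63 at 4 hr and 7.82, 7.45 and 7.77 at 1 month in BALB/c sham glands, against 8.47, 8.12 and 8.44 at 4 hr and 8.90, 8.39, 9.54 and 8.36 at 1 month in C57BL/6 sham glands. The ranges overlapped through 1 BALB/c array of 4 hr, at 8.43, which lay above the C57BL/6 arrays at 8.12, 8.39 and 8.36. Perp was lower in BALB/c by 0.74 (difference -0.74, standard error 0.19, adjusted p = 0.0311). It averaged 7.99 in BALB/c and 8.34 in C57BL/6 at 4 hr, and 7.68 and 8.80 at 1 month. The luminal marker mean lay between -0.45 and 0.24 in BALB/c sham glands and between 0.01 and 0.82 in C57BL/6 sham glands. At 4 hr the myoepithelial marker mean ran from -0.25 to 0.22 in BALB/c and from -0.14 to 0.37 in C57BL/6. At 1 month it ran from -0.12 to 0.35 and from 0.23 to 0.93. The part of these markers in the Perp difference was not tested. Leaving out single arrays raised the highest adjusted p of Perp to 0.0756. The third Bcl2l1 probe set (0.35, adjusted p = 0.0945) and Aen at its brightest (0.32, adjusted p = 0.159) were not called.

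In blood, limma called 0 of 9 genes between the strains, where 0.576% of all genes were called, and 0 of 9 had an unadjusted p under 0.05, beside 10.6% of all genes. Perp measured 2.96 to 3.21 in BALB/c blood and 3.16, 3.32, 3.22 and 8.11 in C57BL/6 blood, and the high value was that of replicate 4 with its liver transcripts. The same array was lowest for the brightest Bcl2l1 probe set, at 7.92, where the other 3 C57BL/6 arrays measured 9.69, 10.27 and 10.07 and the BALB/c arrays 10.95, 9.99, 9.73 and 10.31. The difference for Bcl2l1 was 0.75 (95% interval -0.46 to 1.97). Against the median blood array, the erythroid marker mean ran from -1.13 to 0.54 in C57BL/6 and from -0.49 to 0.30 in BALB/c. For the neutrophil markers it ran from -2.15 to 0.41 and from -0.02 to 0.32. The part of blood cell content in the Bcl2l1 values was not tested. At its brightest probe set Aen measured 5.38 to 5.60 in BALB/c and 5.29 to 5.60 in C57BL/6. These values lay above the blood array medians of 4.61 to 4.70, and the strains differed by 0.03 (95% interval -0.21 to 0.26).

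Aen was the member called after HD at 4 hr in both strains, and the genes whose pattern was most like it over the 12 MG group means, each strain centred on its own mean, were Zmat3 (Pearson r = 0.984), Mdm2 (0.979) and Slc19a2 (0.977), a thiamine transporter gene. The 12 points share plates and are centred within each strain, and r is given as a description. Aen averaged 8.79 in BALB/c and 8.59 in C57BL/6 HD glands at 4 hr, and 6.57 to 7.28 in the other MG groups. Zmat3, a p53-induced RNA-binding protein, averaged 8.95 ± 0.21 in BALB/c HD glands at 4 hr (SD, n = 4) and 7.75 ± 0.23 in sham glands (SD, n = 3). Slc19a2 averaged 8.52 ± 0.11 in BALB/c HD glands at 4 hr and 6.34 ± 0.34 in sham glands, and 8.57 ± 0.07 in C57BL/6 HD glands and 6.54 ± 0.15 in sham glands.

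**Figure D5:**
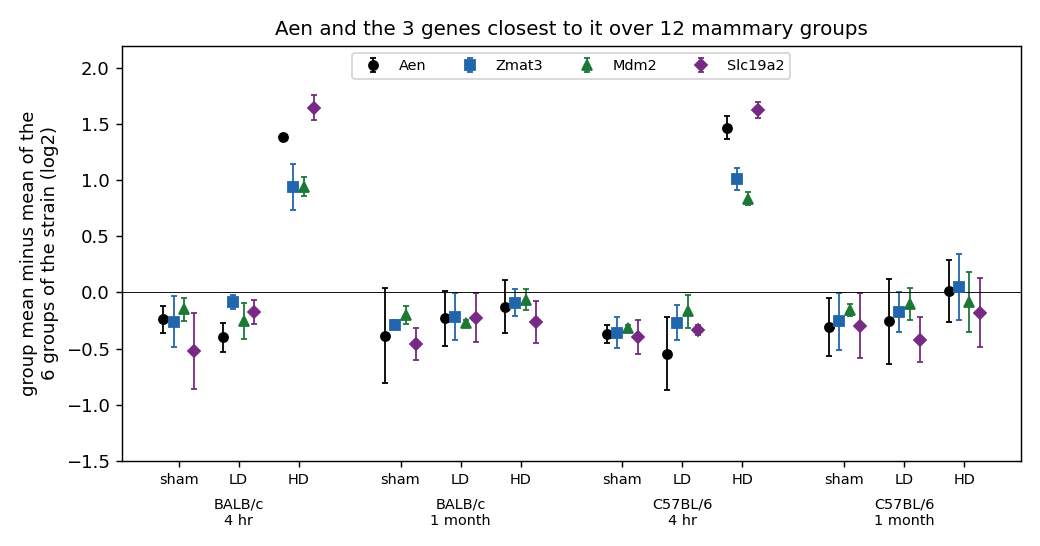
Group mean minus the mean of the 6 groups of the strain (log2, vertical axis) for Aen, Zmat3, Mdm2 and Slc19a2 over 12 mammary groups, with SD bars. All 4 genes stood highest in HD glands at 4 hr in both strains.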

How the data were processed

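The authors deposited log2 values of 22626 probe sets on 51 arrays after RMA, which corrects background, normalizes arrays to a common distribution and summarizes probes. These log2 values were used as deposited. MG and blood arrays had different medians (6.16 to 6.36 and 4.61 to 4.70), so levels were compared within a tissue only. Probe sets were named from the platform annotation, with symbols updated to GRCm38.p6 through the gene identifier: 18003 probe sets carry 1 symbol, 287 several and 4336 none. The array files name no genome build.

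Groups were contrasted with limma (lmFit, eBayes) over all probe sets, with Benjamini-Hochberg adjustment and a call at an adjusted p under 0.05. Dose comparisons used all MG arrays of 1 strain, strain differences of responses all 43, the baseline the 13 sham arrays, averaged over both times, and the blood comparison 8 arrays. A gene was called if any probe set was, and in gene lists its brightest probe set stood for it. The genes, the lists and the comparisons were chosen with earlier results of these data known. All members were described, list genes named were those with the smallest p, and array values were given for called members. The arrays left out in one alternative were those named before as holding muscle, lymphoid, skin or liver transcripts. C57BL/6 HD 1 month replicate 3, with raised lymphocyte markers, was not among them and was left out only singly. The study gives 4 mice per group, while 2 to 4 arrays per group were analysed here, and their number limits the precision. The fitting steps were tested on simulated data. Residuals of arrays with a shared replicate number had a mean correlation of 0.0145 in BALB/c and 0.0124 in C57BL/6, so no pairing was used. Promoter windows are those of RefSeq. Fits ran in R 4.3.3 with limma 3.58.1. Tables were made in Python 3.11 with pandas 2.3.3 and numpy 2.4.6, and plots with matplotlib 3.10.9.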

Additional observations from a re-analysis of the deposited data

Results flagged for a closer look

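In 7 of 170 groups of 4 arrays tested, 1 array stood apart from the others by Dixon's test, where chance gives about 1 in 20. In C57BL/6 blood replicate 4, the array with liver transcripts, Perp measured 8.11 (the next 3.32), Pmaip1 4.62 (the next 6.11) and the brightest Mcl1 probe set 9.22 (the next 10.52). In C57BL/6 LD glands at 4 hr, replicate 1 measured 8.61 for Fas (the next 8.15) and replicate 2 measured 5.09 for the second Aen probe set (the next 5.45). Pmaip1 measured 4.80 in BALB/c HD 4 hr replicate 2 (the next 5.02), and the second Bcl2l1 probe set measured 6.61 in C57BL/6 HD 4 hr replicate 1 (the next 6.38).

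The Aen response to HD differed between the times by the test of the difference itself. It was smaller at 1 month than at 4 hr in BALB/c, with a difference of -1.37 at the brightest probe set and -1.52 at the second, and in C57BL/6, with differences of -1.52 and -1.60.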

How the results depend on the processing

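Of 5366 values recomputed under alternatives, 5208 kept direction and call, or changed direction within the replicate spread while uncalled in both runs. A further 73 lost the threshold and 25 passed it. The direction changed by more than the replicate spread in 60 values, all uncalled in both runs. It changed in 0 values that were called in either run. The calls of Aen at the brightest and the second probe set after HD at 4 hr, against sham and against LD, held in every alternative run that gave a value. When the plate column entered as a covariate, the genes called were 1 for BALB/c HD 4 hr against sham (3 in the report), 2 for BALB/c HD against LD (4), 0 for the BALB/c change with time (1) and 2 for C57BL/6 HD 4 hr against sham (1). Without the arrays with other-tissue transcripts, which leaves 2 to 3 arrays in the BALB/c groups of 4 hr, these were 1 for BALB/c HD 4 hr, 1 for BALB/c HD against LD and 0 for the BALB/c change with time. Fas in BALB/c was then 0.82 against sham (adjusted p = 0.0578) and 0.83 against LD (adjusted p = 0.0525), and with the plate column 0.81 (adjusted p = 0.233).

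The replicate block, which pairs arrays by number only, gave 2 called members for C57BL/6 HD 4 hr and 4 for C57BL/6 HD against LD, and in BALB/c took the brightest Bcl2l1 probe set to 0.42 (adjusted p = 0.0709). C57BL/6 HD 4 hr also had 2 with only the arrays compared, array weights, equal array medians, dim probe sets left out, trend and robust variances, or the study's thresholds. C57BL/6 HD against LD had 2 with array weights, 4 with equal medians, 3 without dim probe sets and 2 with trend and robust variances, and BALB/c HD against LD had 2 without dim probe sets. Fas in C57BL/6 after HD at 4 hr was the member gained under 6 of these settings, for example 0.67 with equal medians (adjusted p = 0.0116). Leaving out 1 array at a time gave 2 to 3 for BALB/c HD 4 hr, 2 to 5 for BALB/c HD against LD, 0 to 1 for the BALB/c change with time (0 without sham 4 hr replicate 1 or 2 or sham 1 month replicate 1 or 2), 1 to 3 for C57BL/6 HD against LD (3 without LD replicate 1) and 1 to 2 for the sham strain difference, where Perp was lost without any of 7 arrays. The cause of these changes was not tested.

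The number of arrays limits all of this, and the probe sets of Pmaip1, Tnfrsf10b, Bbc3 and Bcl2 lay on average under the MG array medians.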
